A study of Caenorhabditis elegans with 2 samples.

Results

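Noncoding genes that lie outside protein-coding genes are the subject here, at the places where the protein F13H6.1, encoded by bcl-11 and carrying a tag, was recovered from Caenorhabditis elegans chromatin. A called region was a member when its summit, the position of highest signal, lay in a gene that is not protein coding and in no protein-coding gene, and more than 100 bp from any tRNA, snoRNA or snRNA gene. The pooled list of both replicates held 21807 nuclear regions, and 862 of them (3.95%) met this rule. By the biotype of the gene at the summit, 536 lay in genes typed ncRNA, 255 in pseudogenes, 57 in long intergenic noncoding RNA (lincRNA) genes, 9 in microRNA genes, 8 in piRNA genes and 6 in antisense RNA genes, and none in ribosomal RNA genes. Of the 862, 9 lay in genes of several biotypes and count in each.

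The assay was chromatin immunoprecipitation with sequencing (ChIP-seq), which enriches DNA bound by a protein. Hermaphrodite worms of strain OP471 (unc-119(tm4063) III; wgIs471) were sampled whole, as late embryos, 5 hours after synchronization by egg bleaching. F13H6.1 came from the transgene wgIs471, fused at its C-terminal end to GFP and FLAG, and an anti-GFP antibody pulled it down. There was 1 group of 2 biological replicates, with the same genotype in both and no other condition. The labels do not give the promoter that drives the transgene, its insertion site or its copy number, and whole embryos mix all cell types.

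BCL11 proteins of mammals are zinc finger transcription factors that act in blood and nerve cells, largely as repressors. Noncoding genes of the worm fall into very different kinds. Genes for RNase MRP RNA and signal recognition particle RNA are made by RNA polymerase III, as tRNAs are. Those for microRNAs and lincRNAs are made by RNA polymerase II, and piRNA genes are minute units active in the germ line. The type ncRNA is the annotation's general class for other short transcripts, most of them without a known role. Pseudogenes are disabled copies of genes, here of tRNA genes as well as coding genes.

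The pooled list is permissive. It holds 21824 regions with the 17 mitochondrial ones. The authors kept a list of those that passed a test of reproducibility between replicates, 1049 of them nuclear. These are called thresholded here, and they were the regions of highest pooled signal. The signal is the authors' value per region on a scale that is not stated, so it serves to rank regions within a list. Being thresholded and ranking high in pooled signal are therefore the same measure. The lists do not give library depth. Controls were not analysed here, and binding as such was not tested. Shares carry 95% Wilson intervals, which cover counting error only, and regions of 1 experiment are not independent.

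The windows below show the kinds of place that led the members, 50 bp on each side of the summit. They are F13D11.22, the strongest member; C14F11.14, close to a coding start; linc-128, the strongest lincRNA member; mrpr-1, the RNase MRP RNA gene; W01D2.7, a short ncRNA gene; Y39A1A.28, the richest in G and C of the 7; and T26C11.3, the only thresholded pseudogene member. Sequences are the plus strand of the RefSeq WBcel235 (ce11) genome, 5′ to 3′. Capitals mark any match, on either strand, to the words TGACCA (bound by mammalian BCL11A), GGTTCGA (the B box of RNA polymerase III genes), CTGTTTCA (upstream motif of piRNA genes), the repeat GAGAGA, the TATA-like TATAAA, and CTGCGTCT.
F13D11.22, X:5812078-5812178: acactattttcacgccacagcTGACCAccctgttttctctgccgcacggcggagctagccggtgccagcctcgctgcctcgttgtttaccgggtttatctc
C14F11.14, X:6207792-6207892: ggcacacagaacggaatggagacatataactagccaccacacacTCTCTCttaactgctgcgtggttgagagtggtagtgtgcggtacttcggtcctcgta
linc-128, V:1151512-1151612: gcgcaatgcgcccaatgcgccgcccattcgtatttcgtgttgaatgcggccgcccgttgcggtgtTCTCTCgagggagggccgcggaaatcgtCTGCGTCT
mrpr-1, II:7200197-7200297: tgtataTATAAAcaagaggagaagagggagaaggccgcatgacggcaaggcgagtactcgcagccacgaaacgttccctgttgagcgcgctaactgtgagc
W01D2.7, II:14804477-14804577: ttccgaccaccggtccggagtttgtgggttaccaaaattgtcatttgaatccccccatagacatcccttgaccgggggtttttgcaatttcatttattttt
Y39A1A.28, III:10634181-10634281: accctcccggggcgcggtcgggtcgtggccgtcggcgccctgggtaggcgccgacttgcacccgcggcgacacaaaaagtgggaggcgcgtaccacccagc
T26C11.3, X:1837814-1837914: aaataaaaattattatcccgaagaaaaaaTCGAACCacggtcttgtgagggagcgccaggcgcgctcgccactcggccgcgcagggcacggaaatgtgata
The G and C content of these windows ran from 44.6% in W01D2.7 to 74.3% in Y39A1A.28. F13D11.22 held 1 TGACCA, and C14F11.14 held 1 GAGAGA, read on the other strand. The linc-128 window held both GAGAGA and CTGCGTCT, and mrpr-1 held 1 TATAAA. T26C11.3 held the B box word GGTTCGA on the minus strand, the strand of the gene. W01D2.7 and Y39A1A.28 held none of the 6 words.

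Members were thresholded more often than nuclear regions in general, and this lay with the ncRNA genes. Of the 862 members, 80 (9.28%, interval 7.52 to 11.4) were in the thresholded list, where the background over all nuclear regions was 4.81%. Intergenic regions stood at 7.38% (567 of 7684), regions in protein-coding genes at 1.89% (242 of 12790), and regions within 100 bp of tRNA, snoRNA or snRNA genes at 34% (160 of 471). The members' interval thus lay above all but the last of these, and its low end was close to the intergenic share. Members made up 7.63% of the thresholded nuclear regions.

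By biotype the members parted widely. Of the ncRNA members 74 of 536 (13.8%, 11.1 to 17) were thresholded, and of the lincRNA members 5 of 57 (8.77%, 3.81 to 18.9). Of the pseudogene members 1 of 255 was (0.392%, 0.0693 to 2.19). None of the 9 microRNA, 8 piRNA and 6 antisense RNA members was, with upper limits of 29.9%, 32.4% and 39% at these small numbers. Each replicate's own list gave a like picture over its own members. Cut to the length of the thresholded list, the highest regions of replicate 1 held 15.3% of its ncRNA members and 0.866% of its pseudogene members, against 5.37% of all its nuclear regions. In replicate 2 these shares were 13.9%, 0.635% and 4.79%. The lincRNA share moved from 14% of 43 in replicate 1 to 6.9% of 58 in replicate 2.

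The median member stood at percentile 63.3 of the pooled list, the share of regions with a lower signal. The ncRNA members had a median of 76.3, lincRNA members 58.9, antisense RNA members 51.8, microRNA members 45.1, pseudogene members 40.6 and piRNA members 26.0. Intergenic regions had 55.3. Pseudogene members thus stood below antisense RNA and microRNA members by median, though the latter kinds held no thresholded region. Single values overlapped between all biotypes, and both ncRNA and pseudogene members reached down to the weakest regions of the list.

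**Figure D1:**
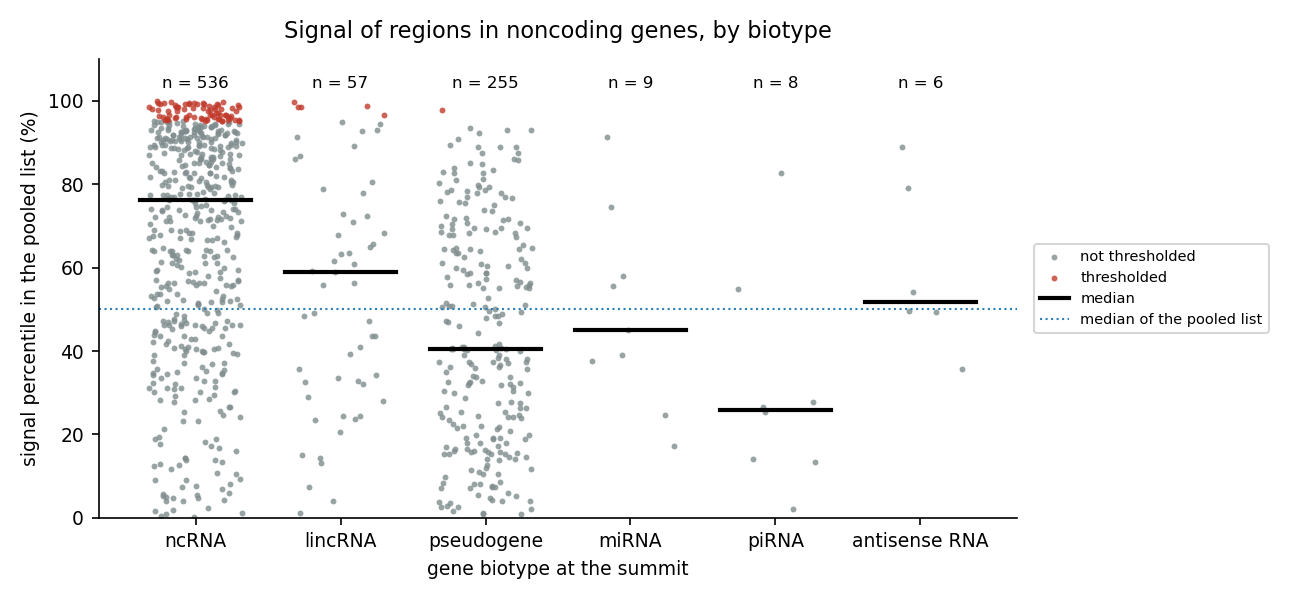
Percentile of the pooled signal (vertical axis, percent of pooled regions) for each member by the biotype of the gene at its summit; red points are thresholded, black bars are medians and the dotted line is the middle of the pooled list. The ncRNA median lies at 76.3 and the pseudogene median at 40.6, and 1 red point stands among 255 pseudogene members.

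Shares of the list by rank followed. The ncRNA members made up 3.37% (1.15 to 9.45) of the 89 nuclear regions ranked to 100, from 3 regions, and 7.3% (5.13 to 10.3) of the nuclear regions ranked 101 to 500, 7.46% of those from there to the threshold and 7.27% of those from the threshold to rank 2000. From rank 8001 on they made up 1.45% (1.27 to 1.67). Pseudogene members did the reverse. They held none of the 89 regions ranked to 100, which allows up to 4.14%, and none of the next 397 to rank 500, then 0.178% of those down to the threshold and 1.32% (1.14 to 1.52) from rank 8001 on. Just inside the threshold stood Y67D8C.16 (rank 1053, signal 82.7), R13A5.16 (rank 1056, 82.61) and F53B3.12 (the last rank kept, 82.13), and just outside K04D7.10 with K04D7.8 (rank 1074, 81.71), ZK829.13 (rank 1079, 81.57) and C10F3.16 (rank 1088, 81.27). All 6 were in ncRNA genes.

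**Figure D2:**
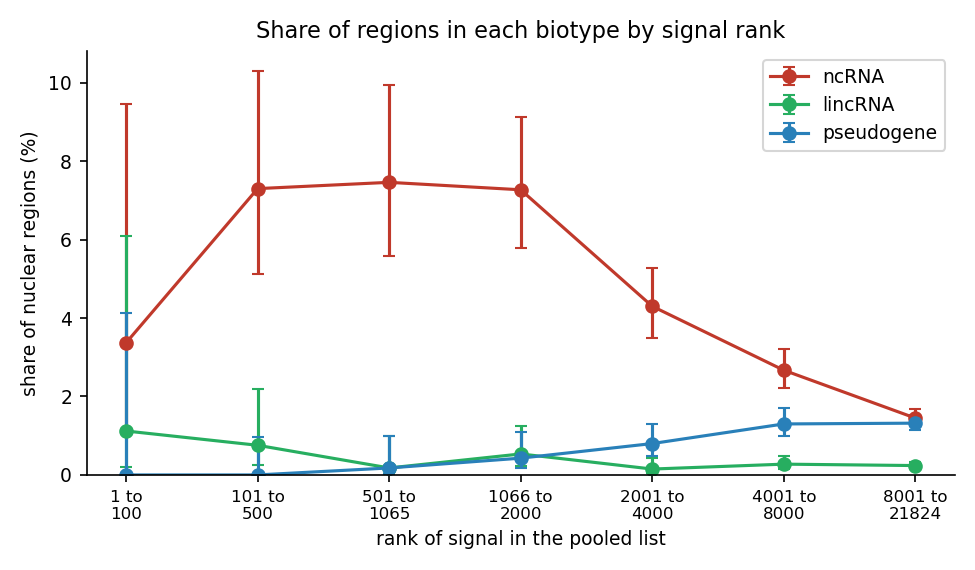
Share of nuclear pooled regions (vertical axis, percent) whose summit lies in a gene of each biotype, by rank of pooled signal (horizontal axis), with 95% Wilson intervals. The ncRNA share is 3.37% in the first bin, with a wide interval, and falls from 7.27% between the threshold and rank 2000 to 1.45% from rank 8001 on, where the pseudogene share of 1.32% is close to it.

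Per length of sequence the difference was larger, since pseudogenes are long and ncRNA genes short. The sequence in which a summit could count as a member was 0.613 Mb for ncRNA genes and 3.01 Mb for pseudogenes. The ncRNA genes held 874 summits and 121 thresholded summits per Mb, and the pseudogenes 84.7 and 0.332. Intergenic sequence held 231 and 17, coding genes 204 and 3.86, and the flanks of tRNA, snoRNA and snRNA genes, with those genes, 1465 and 498. The lincRNA genes, with 269 and 23.6, stood near the intergenic values. The microRNA genes held 572 summits per Mb, the antisense RNA genes 230 and the piRNA genes 51.6, from 9, 6 and 8 members, and no thresholded one. Of the positions in pseudogenes 79.4% were the centre of a 31-base word that is unique in the genome. This share was 94% in ncRNA genes, 99.4% in piRNA genes, 93.4% in coding genes and 88.4% in intergenic sequence. The part of uniqueness in these densities was not tested. Over unique positions alone the densities were 97.2 summits per Mb in pseudogenes, 919 in ncRNA genes and 252 in intergenic sequence.

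**Figure D3:**
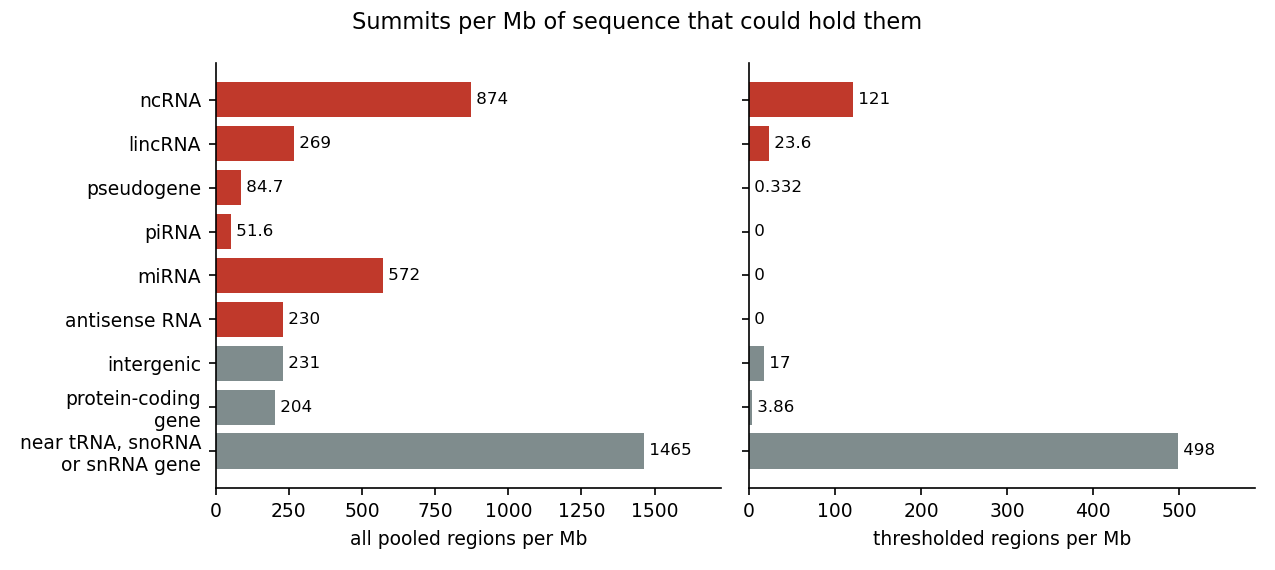
Summits per Mb of sequence in which a summit would fall in the class, for all pooled regions (left) and thresholded regions (right); red bars are biotypes of the members, grey bars other sequence. Genes typed ncRNA hold 874 and 121 per Mb and pseudogenes 84.7 and 0.332; the bars of microRNA, antisense RNA and piRNA genes rest on 9, 6 and 8 members.

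The strongest members were ncRNA genes, and most led both replicates. The summit in F13D11.22 and, on the other strand, F13D11.9 (X:5811894-5812465) had a pooled signal of 675.6, rank 5. In replicate 1 its signal was 297.3 (rank 5) and in replicate 2 379.1 (rank 4). Its nearest coding start, that of F13D11.3, was 6206 bp away, so this member stood apart from coding starts. The same interval held a second summit, in F13D11.7 and F13D11.13, with a signal of 198.4 (rank 125), and this one ranked 81 in replicate 1 and 328 in replicate 2. The summit shared by Y37A1B.330 and Y37A1B.333 (IV:14033082-14034130) had 298.9, rank 37, with ranks 86 and 22 in the replicates. It lay 287 bp from the microRNA gene cel-mir-52, and its interval of 1049 bp was the widest of all members.

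C14F11.14 (X:6207700-6207970) had a pooled signal of 284.5, rank 41, with ranks 52 and 37 in replicates 1 and 2. Its summit lay 155 bp upstream of a start of T13C5.6. F26F4.14 (III:4899691-4900146) ranked 121, with 165 and 91 in the replicates. It stood 589 bp upstream of tag-340. W01D2.7 (II:14804438-14804566), with 190.1 and rank 138, had ranks of 130 and 127, and its region of 129 bp was the narrowest of all members. Both replicates placed these 3 among their highest 200 regions.

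F52H2.13 (X:2536319-2536774) ranked 142, with 143 in replicate 1 and 98 in replicate 2. Y39A1A.28 (III:10634120-10634365), whose window was 74.3% G and C, ranked 160, with 159 and 172. F31F7.8 (V:6267421-6267876), 362 bp upstream of mrck-1, a kinase gene of the myotonic dystrophy kinase family, ranked 172, with 226 and 143. W06H8.13 (V:6227587-6227793) ranked 173, with 283 and 108, and lay 132 bp from a small RNA gene, just past the distance of the rule. Of the 12 strongest thresholded members 11 were in ncRNA genes and 1, linc-128, in a lincRNA gene.

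A list of 9 genes, set by name, was meant to hold RNAs of RNA polymerase III other than tRNA, snRNA and ribosomal RNA. Which polymerase makes each of them, rncs-1 included, was not checked. Of the 9 genes, 4 held a member summit, 7 overlapped some pooled region, and 6 (66.7%) overlapped a thresholded one. This last held for 4.74% of the 7764 ncRNA genes. None of the 20 ribosomal RNA genes overlapped a pooled region, and 33.8% of their positions were unique by 31-base words. The gene mrpr-1, for the RNA of RNase MRP, which cuts precursor ribosomal RNA, had its region at II:7200192-7200349 with a pooled signal of 201.6, rank 118. Its signal was 100.1 (rank 123) in replicate 1 and 100.3 (rank 124) in replicate 2. The summit at 7200247 lay inside the gene, which starts at 7200233, and 302 bp upstream of pcrg-1. The replicates thus placed mrpr-1 at nearly the same rank.

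The other 3 members of that list were copies of the signal recognition particle RNA, which helps to send nascent proteins to the endoplasmic reticulum. The summit in srpr-2.1 (III:5211221-5211676) had 87.11, rank 950, with 41.8 (rank 1044) and 43.82 (rank 1091) in the replicates, and was thresholded. The summit in srpr-3 (V:9293342-9293797) had 49.28, rank 3333, with ranks 3937 and 5068. The summit in srpr-1.1 (III:4378887-4379342) had 39.27, rank 5898, while the nearest replicate summits had 40.99 (rank 1093) and 56.71 (rank 605), beside a stronger pooled region of rank 714 whose summit lay outside the gene. Copies of this RNA are alike in sequence, and how the authors placed reads that match several copies is not given in the sources used here, so values of single copies are uncertain. Regions at rpr-1, the RNA of RNase P, and at srpr-1.2 and srpr-2.2 ranked 53, 742 and 155, but these genes lie in protein-coding genes and were not members. No region overlapped rncs-1, whose RNA competes for Dicer, or yrn-1, the Y RNA gene.

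The lincRNA members were led by linc-128. Its region (V:1151420-1151693) had 223.4, rank 79, with 124.5 (rank 61) in replicate 1 and 99.42 (rank 128) in replicate 2, and its summit lay 4709 bp upstream of cmd-1, the calmodulin gene. The region in an intron of linc-90 (III:354589-355044) had 150.1, rank 258, with ranks 328 and 213, and lay 17 bp upstream of a start of gei-4. The region in an intron of linc-146 (V:10178059-10178514) had 133.2, rank 348, with ranks 371 and 337. These 3 stood among the highest 500 regions of both replicates. Of 173 named long noncoding RNA genes 38 held a member summit and 4 a thresholded one, the last being linc-91 with 2 thresholded regions.

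Several members shared 1 gene. The 862 summits lay in 904 genes, of which 832 held 1, 61 held 2 and 11 held 3 or more; 124 summits lay in 2 genes at once and 5 in 3. Merged where they overlapped, the members formed 814 separate loci. C30E1.9, an ncRNA gene of 14770 bp on X, held 6 summits and 1 thresholded region (rank 892, with 598 and 1411 in the replicates). Its others ranked from 1993 to 9635. The gene linc-129 also held 6, none thresholded, with the best at rank 1547; that summit ranked 656 in replicate 1 and 16595 in replicate 2. linc-91, with 4 regions, had those of ranks 358 and 760 in the thresholded list. linc-110 and the pseudogene Y39B6A.31 held 4 each and none thresholded, from rank 11125 to 20956 and from 5742 to 20942. None of the 4 in Y39B6A.31 overlapped a region of replicate 1. Of these 5 genes, C30E1.9 and linc-91 held thresholded regions.

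Pseudogene members were numerous and weak. The only thresholded one lay in an intron of T26C11.3 (X:1837636-1838091), with 114.4, rank 508. Its signal was 51.48 (rank 647) in replicate 1 and 56.26 (rank 617) in replicate 2, so both replicates placed it well inside the length of the thresholded list. The next were the summit shared by C25A1.17 and the ncRNA gene linc-171, with 71.85 and rank 1438, and T10B5.2 (V:1849905-1850360), with 69.28 and rank 1549. T10B5.2 ranked 1418 and 2411 in the replicates. Of 209 pseudogenes of tRNAs 2 held a member, Y94H6A.t1 at rank 4830 and D1005.t1 at rank 17899, the latter with no overlapping region in either replicate. Some pooled region overlapped 23 (11%) of the 209, and a thresholded one 3 (1.44%). For all pseudogenes these shares were 14.6% and 0.423%.

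MicroRNA, piRNA and antisense RNA genes held few members, all below the threshold. The strongest in a microRNA gene, cel-mir-8209, ranked 1907 in the pooled list, but 14127 in replicate 1 and 3655 in replicate 2. The summit in let-7, the microRNA that times the larval to adult change, and in C05G5.8 (X:14744361-14744816) ranked 5577, with 9669 and 4893. The next, in cel-mir-8199, ranked 9151 and met no region of either replicate. Of 258 microRNA genes 8 held a member, while 57 (22.1%) overlapped some pooled region and 6 (2.33%) a thresholded one. For genes typed ncRNA these overlaps were 32.7% and 4.74%, and for lincRNA genes 34.5% and 3.61%. No thresholded member had its summit in a microRNA gene. Of 15363 piRNA genes 10 held a member, from 8 summits, none of them thresholded. The best was in 21ur-8973 at rank 3768 (6455 and 2446 in the replicates), then 21ur-13642 at rank 9858 and 21ur-12161 at rank 15788. Antisense RNA members were led by anr-36 at rank 2407 (1878 and 6506), C02F4.12 at rank 4591 (2895 and 2881) and anr-18 at rank 9997, found in replicate 2 alone. Of 57 anr genes, named for antisense RNA, 3 held a member, the last being anr-24 at rank 11036.

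The replicates found ncRNA members more often than pseudogene members. A region of each replicate overlapped 491 of the 862 members (57%, 53.6 to 60.2), where this held for 48.4% of all nuclear regions. The share was 68.5% (64.4 to 72.3) for ncRNA, 50.9% for lincRNA and 36.5% (30.8 to 42.5) for pseudogene members. Neither replicate had a region at 44 members (5.1%). Between the signals of the replicates, Spearman's rho was 0.58 across the 491, across the 367 in ncRNA genes 0.57 and across the 93 in pseudogenes 0.31; over all 10560 such nuclear regions it was 0.47. These points share the 2 libraries, and neighbouring pooled regions can meet the same replicate region.

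All 80 thresholded members met a region of both replicates, a choice the threshold itself makes in part. Cut to the same length, the highest regions of replicate 1 held 63 of them and those of replicate 2 held 66, with 52 in both and 3 in neither. Single members differed widely. T26A5.10 (pooled rank 1015) ranked 7817 in replicate 1 and 492 in replicate 2, and F26F12.17 (pooled rank 961) ranked 551 and 3403. These are the lowest ranks a thresholded member had in each replicate, and both genes were chosen for them. Strong members such as F13D11.22 and mrpr-1 therefore rest on both libraries, and T26A5.10 mainly on replicate 2.

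**Figure D4:**
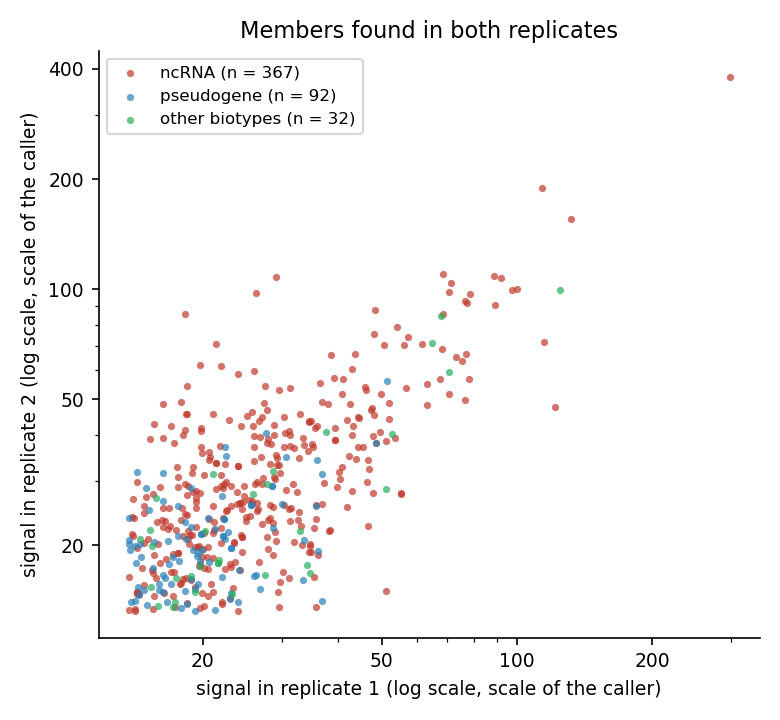
Signal in replicate 1 (horizontal) and replicate 2 (vertical), both on log axes in the units of the authors' caller, for the 491 members found in both; a member in both an ncRNA gene and a pseudogene is drawn as ncRNA. The strongest point, F13D11.22, is at 297.3 and 379.1, and pseudogene points gather at low signal in both.

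Members lay near the starts of protein-coding genes less often than nuclear regions in general, though ncRNA members taken alone did not. The rule bars summits inside coding genes, which closes much of the sequence downstream of a start to members. In a window from 1000 bp upstream to 500 bp downstream of a coding transcript start stood 280 members (32.5%, 29.4 to 35.7), where 39% of all nuclear regions (8502 of 21807) stood. The share was 44.4% for the ncRNA members, 9.8% for the pseudogene members and 46.4% for intergenic regions. Of the 80 thresholded members 43 (53.8%, 42.9 to 64.3) stood there, and of the 567 thresholded intergenic regions 399 did. Inside the window 42 of 238 ncRNA members were thresholded (17.6%, 13.3 to 23), and outside it 32 of 298 (10.7%, 7.71 to 14.8). For intergenic regions these shares were 11.2% and 4.08%. The intervals of the ncRNA members inside and outside the window overlapped, and outside it their interval lay above the intergenic share. None of the 25 pseudogene members in the window was thresholded (upper limit 13.3%).

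By distance from the nearest coding start, the thresholded share of ncRNA members was 15.1% (9.18 to 23.7) to 250 bp, 23.6% (15.3 to 34.6) to 500 bp, 14.9% to 1000 bp, 10.4% to 2000 bp, 10.1% to 5000 bp and 12.9% (6.69 to 23.4) beyond. Over all nuclear regions these shares were 7.7%, 7.35%, 4.04%, 3.41%, 3.42% and 3.9%. For intergenic regions, which also lie outside coding genes, they were 13.2%, 11.9%, 6.43%, 3.7%, 4.55% and 3.64%. The ncRNA interval to 250 bp holds the intergenic share, and in the farther bins it lies above it. The intervals of the ncRNA members overlapped between the nearest and the farthest bin. The median distance was 1889 bp over all members and 760 bp over the thresholded ones. Of the 80 thresholded members 72 lay upstream of that start, and of all 862 members 672 did. The rule bars summits inside coding genes, so these counts are set in part by the rule. Coding genes next to thresholded ncRNA members included those of ribosomal proteins, with F56F3.10 254 bp upstream of rps-1, Y71F9AL.19 218 bp upstream of rpl-1, and F54C9.17 382 bp upstream of rpl-5. R160.8 lay 324 bp upstream of dpy-23, an adaptor protein gene of endocytosis, F59F5.9 381 bp upstream of syd-2, the liprin gene of synapses, and F53B3.12 373 bp upstream of vang-1, a planar polarity gene. These 6 were chosen from the thresholded members with known neighbours after their values were seen. At such places the noncoding gene and the coding start cannot be told apart as the place of the signal.

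Divergent coding neighbours held more of the strong members. Between coding genes that point away from each other lay 341 members, of which 52 (15.2%, 11.8 to 19.5) were thresholded. Between genes in tandem 23 of 422 were (5.45%, 3.66 to 8.05), and between genes pointing toward each other 5 of 96 (5.21%, 2.24 to 11.6). Intergenic regions gave 10.1%, 5.83% and 2.97%. For ncRNA members alone the shares were 18.6%, 8.59% and 18.2%, the last from 4 of 22 members, with an interval of 7.31 to 38.5.

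Base composition moved with both biotype and threshold. Within 50 bp of the summit the median G and C content was 52.5% in thresholded members, 49.5% in ncRNA members, 44.6% in pseudogene members, 41.6% in intergenic regions and 42.6% in all nuclear regions. Of ncRNA members below 40% G and C 3 of 70 were thresholded (4.29%, 1.47 to 11.9), of those from 40 to 50% 22 of 233 (9.44%, 6.32 to 13.9), and of the rest 49 of 233 (21%, 16.3 to 26.7). Intergenic regions gave 1.84%, 7.89% and 18.6% in these ranges, so the ncRNA interval holds the intergenic share in each range. Of the 75 pseudogene members with 50% or more, 1 was thresholded (1.33%, 0.236 to 7.17). The part of base composition in these differences was not tested.

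The short words printed above were counted on both strands in the same window of 101 bp in all regions. GAGAGA, a stretch of alternating G and A, occurred in 17.6% of members, in 23.7% (20.3 to 27.5) of ncRNA members, 5.1% (3 to 8.53) of pseudogene members, 16.3% of intergenic regions and 11.8% of all nuclear regions. In thresholded members it occurred in 31.2% (22.2 to 42.1), and in all thresholded nuclear regions in 28.3%. CTGCGTCT was in 3.02% of members, none of the 255 pseudogene members among them, in 4.07% of intergenic regions and in 2.35% of nuclear regions. Thresholded members had it in 7.5% and all thresholded nuclear regions in 7.82%. TGACCA was in 4.99% (3.72 to 6.65) of members and 3.71% of nuclear regions. It occurred in 7.5% (3.48 to 15.4) of thresholded members and 3.81% of thresholded nuclear regions, and this interval holds the background. With 100 bp on each side of the summit the shares were 15% (8.79 to 24.4) and 7.15%, and there the interval lies above it. In that window TGACCA was in 8.35% (6.69 to 10.4) of all members and 6.88% of all nuclear regions. Regions near tRNA, snoRNA or snRNA genes had 11.3% (8.71 to 14.4), so a raised share was not particular to members. Each of the 6 words was counted in both windows, with no allowance for the number of looks. GGTTCGA was in 5 members (0.58%), T26C11.3 among them, in 1.23% of nuclear regions, and in 22.1% of those near tRNA, snoRNA or snRNA genes. TATAAA was in 6.96% of members and 8.31% of nuclear regions, and CTGTTTCA in 0.928% and 0.385%. None of the 6 words holds another, though matches can overlap in the DNA. A match is a description of the letters in the window only.

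Members gathered around the tagged gene itself. Within 10 kb of bcl-11 (V:6356025-6362997) lay 22 regions, of which 11 were thresholded, or 816 and 408 per Mb, against 217 and 10.5 over the nuclear genome. Of these, 7 were members and 3 thresholded members. In a grid of 50-kb bins, the bin that holds the start of bcl-11 had 9 thresholded regions, the most of any, where the next had 5. The ncRNA gene F13H6.9 (V:6355442-6355897), 355 bp upstream of the bcl-11 start, had 116.5, rank 485, with 76.41 (rank 242) in replicate 1 and 49.75 (rank 817) in replicate 2. F13H6.25 with F13H6.26 (V:6353308-6353763) had 122.7, rank 422, but 26.2 (rank 3394) in replicate 1 and 97.67 (rank 135) in replicate 2. F13H6.7 ranked 761 and T28C12.8 ranked 529. The strain carries a transgene of this gene, and the part of extra copies of its DNA in these signals was not tested. These 4 genes were chosen for their place. Without members within 50 kb of bcl-11 there were 851 members and 76 thresholded ones.

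**Figure D5:**
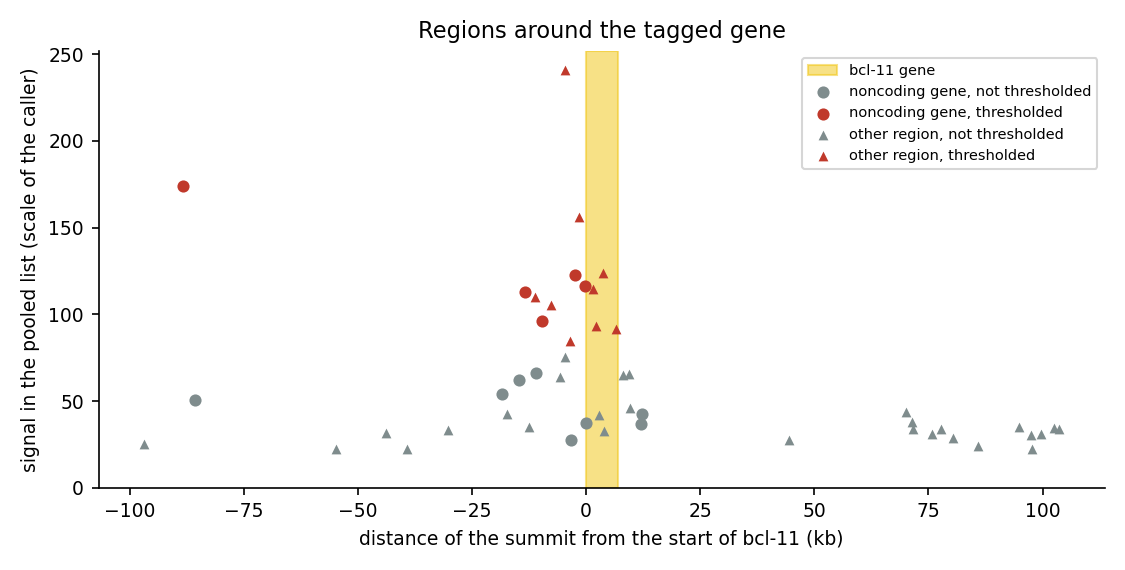
Pooled signal (vertical axis, scale of the caller) of nuclear regions within 100 kb of bcl-11, by distance of the summit from the gene's start in kb (negative: upstream); circles are members, triangles other regions, red thresholded, and the yellow band is the gene. Of the 33 regions within 50 kb, 13 are thresholded, 4 of them members.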

How the data were processed

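Enriched regions of F13H6.1 ChIP-seq were available for each of 2 biological replicates and for their pooled reads, on the ce11 build (WBcel235), with a list of thresholded regions. The authors called regions in the alignments against a control, per the file lists deposited with the samples; the sources used here do not name the aligner, the peak caller or the level of the threshold. The deposited signal per region is the authors' value on an unstated scale. The deposited summit is an offset from the region's start. Lists on ce10 were not used. Depth per library is unknown, and nothing could be tested over samples with 1 group.

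Genes and biotypes came from Ensembl release 115 of WBcel235. A summit was a member by the rule given with the results, and the class, biotype and distances use gene spans and all annotated transcript starts. A member was matched in a replicate to the overlapping region (by at least 1 bp) with the nearest summit. Eligible sequence for densities is all positions where a summit would fall in the class. Word counts used 50 bp on each side of the summit. Uniqueness was read from 31-base words of the RefSeq genome on both strands. The code was tested on simulated data with known classes. Named genes were the 12 strongest thresholded members, the 3 strongest of each biotype, the 3 on each side of the threshold, genes with 4 or more members, and members in lists of noncoding genes (the 3 strongest where over 5); others are said to be chosen after their values. Members and lists were chosen with earlier results of these data known, and 2 alternatives, summits in exons and leaving out 50 kb around bcl-11, were added after seeing the data. Software was matplotlib 3.10.9, scipy 1.17.1, pandas 2.3.3 and numpy 2.4.6 under Python 3.11.15.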

Additional observations from a re-analysis of the deposited data

How the results depend on the processing

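Of 53 alternatives 40 left their value within a set range and 13 moved it beyond. The range was 1.5 times a count, or the 95% interval of a share or of the median percentile. Such intervals are wide for the small biotypes. For the median G and C content it ran from the lower to the upper quartile of members, 41.6 to 52.5%. Whether an alternative reversed a direction was not assessed. Thresholded members numbered 42 when only the stronger 50% of thresholded regions counted, and 37 over 1000 bp from any coding start. Members found in both replicates fell to 51.4% with an overlap of at least 50% of both regions and to 38.5% with summits within 100 bp. With 500 or 2000 bp upstream, the coding-start window held 20.9% or 49.5% of members. The 5′-most of 3 equal parts of the gene held the summit in 34% of 996 pairs of gene and summit. In genes of at least 500 bp it did so in 40.2% of 333 pairs. A summit in several genes counts once for each. With 100 bp on each side of the summit, the words occurred in more members: TGACCA in 8.35% (15% of thresholded members), GGTTCGA in 1.97%, CTGTTTCA in 2.09%, GAGAGA in 29.7%, TATAAA in 12.9% and CTGCGTCT in 6.26%; this window is wider by construction. Leaving out a replicate gave 759 to 910 members, 78 to 80 among the highest regions, 807 to 951 genes and a median percentile of 60.8 to 61.3. The share by biotype then ranged from 13.9 to 15.3% for ncRNA, 6.9 to 14% for lincRNA, 0.635 to 0.866% for pseudogenes and 0 to 20% for microRNA genes, the last from 1 of 5 members. No paired analysis was possible because there was 1 group. Small numbers limit what the microRNA, piRNA and antisense RNA shares can show.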

Other observations

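The X chromosome held 222 of the 862 members (25.8%), where it held 17.4% of nuclear regions. It also carries 2520 of the 7764 ncRNA genes, the most of any chromosome, and 186 of its members were in ncRNA genes. The thresholded share of ncRNA members was 11.3% (7.5 to 16.6) on X and 15.1% (11.8 to 19.3) on the autosomes, with intervals that overlap. For all members these shares were 9.91% and 9.06%, and for all nuclear regions 6.05% and 4.55%. Chromosome V carries 867 of the 2128 pseudogenes and held 79 of the 255 pseudogene members.

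Summits in exons were thresholded more often than summits in introns of the noncoding genes. Of 725 members in exons 77 (10.6%) were thresholded, and of 137 in introns 3 (2.19%), those in linc-90, linc-146 and T26C11.3. Of the summits in introns, 113 lay in pseudogenes, 20 in lincRNA genes and 3 in ncRNA genes, so exon or intron moved with the biotype, and its own part was not tested. Along the gene, summits of ncRNA members were spread evenly, counted once for each ncRNA gene they lay in. Their median stood at 48.8% of the gene's length from its 5′ end, over genes with a median length of 180 bp. Genes on both strands shared 123 member summits, 20 of them thresholded, and at these the strand of the gene cannot be told apart.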
